A study of Mus musculus with 18 samples.

Results

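Axon guidance ligands and their receptors were followed in 1 sorted cell population of the embryonic mouse heart over 6 days. The set holds the semaphorins of classes 3 to 7, plexins, Eph receptors, ephrins, Slits, Robos, netrins, Unc5 receptors and Flrt proteins, taken by gene symbol from the platform annotation, without genes on the X or Y chromosome. It came to 62 genes, read by 154 probes, of 19057 named genes on the array. The symbol pattern for the Unc5 receptors also takes in Unc50 and Unc5cl, 2 genes that are not netrin receptors. Ventricular cells positive for GFP had been sorted by FACS from dispersed hearts of Wt1GFPKI mice, in which GFP is read out from the Wt1 locus, and lysed straight after the sort. The series title calls the sorted cells cardiomyocytes, and every sample title marks the population +M, a letter the labels do not explain. Their RNA was hybridized to 18 Illumina arrays, 3 at each of the stages E11.5, E12.5, E13.5, E14.5, E15.5 and E16.5. All stages carry the same knock-in, and no group without it was analysed here, nor do the labels give the strain, the number of copies of the knock-in allele or the number of embryos in a sort. The labels also do not say whether the 3 arrays of a stage came from separate litters. P-values therefore measure the spread between these samples, which may be technical in part.

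Guidance cues were first known from growing axons, and the same ligand and receptor pairs steer endothelial cells, neural crest cells and valve and septum formation in the heart. Secreted class 3 semaphorins act mostly through neuropilins with plexins, and membrane semaphorins bind plexins directly. Ephrins are bound to the membrane and signal in both directions with Eph receptors, Slits bind Robos, netrins bind Dcc, neogenin and Unc5 receptors, and Flrt proteins are adhesion molecules that bind Unc5 receptors and latrophilins.

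The values below are log2 probe intensities after background correction. A value of 5.02 is the limit above which a probe was counted as above background. Levels are compared between stages for 1 probe and never between probes. Correlations between arrays of a stage over all tested probes ran from 0.980 to 0.994, and 7 of the 18 arrays were closest to an array of a neighbouring stage. In each of these 7 cases the closest array had the same replicate number. All 3 arrays of E14.5 had Xist above background and Eif2s3y, a Y-linked gene, below it. This pattern was seen on no array of another stage, so at E14.5 the stage and the sex of the embryos cannot be told apart. E12.5 replicate 1, E13.5 replicate 2, E15.5 replicate 2 and E16.5 replicate 1 had Eif2s3y above background and Xist below it. The other arrays of these stages had both above it, so the sex make-up of the samples also differed between arrays of a stage. The label cardiomyocyte was set against its markers: all 13 tested cardiomyocyte markers were above background on every array of E16.5 and of E11.5. At E16.5 the same held for all 11 tested fibroblast markers and for 14 of 16 endothelial markers, and at E11.5 for 8 and 12 of them. These counts thus do not tell the cell types apart. The defining genes Wt1 and Tnnt2 are without a named probe and are not analysed here.

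Of the 62 genes, 48 were above background on at least 3 of the 18 arrays and were tested. Between E16.5 and E11.5, 6 of the 48 rose and 10 fell, by limma with Benjamini-Hochberg adjustment over all probes tested. That is 12.5% of the tested members higher, against 11.4% of all 12863 tested named genes, and 20.8% lower, against 12.8% of all. The other 32 did not pass. The median change over the 48 was -0.09 on the log2 scale, and -0.01 over all tested genes. Over the 6 stages the F test called 20 members, 41.7% of them, against 28.9% of all genes. A gene that is above background only at the stages where it is high enters the test through them, and no test of the set as a whole was made, so these shares only describe the genes tested. The count of 6 rises was 3 when E11.5 replicate 2 was left out, and the count of falls ran from 8 to 12 over the arrays left out in turn. In RNA from a whole sorted population, a change in the share of a cell type and a change in RNA per cell cannot be told apart.

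The largest rise was that of Sema5a, and the largest falls were those of Flrt3, Robo1, Unc5b and Sema3a. The plot of change by family sets them beside the rest. Rises and falls were found within 1 family in the semaphorins, the Eph receptors and the ephrins, whereas the called Slit, Robo, Unc5 and Flrt genes were all lower at E16.5. By role, 4 of the 24 tested ligands were higher and 5 lower, and 2 of the 21 tested receptors were higher and 4 lower.

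**Figure D1:**
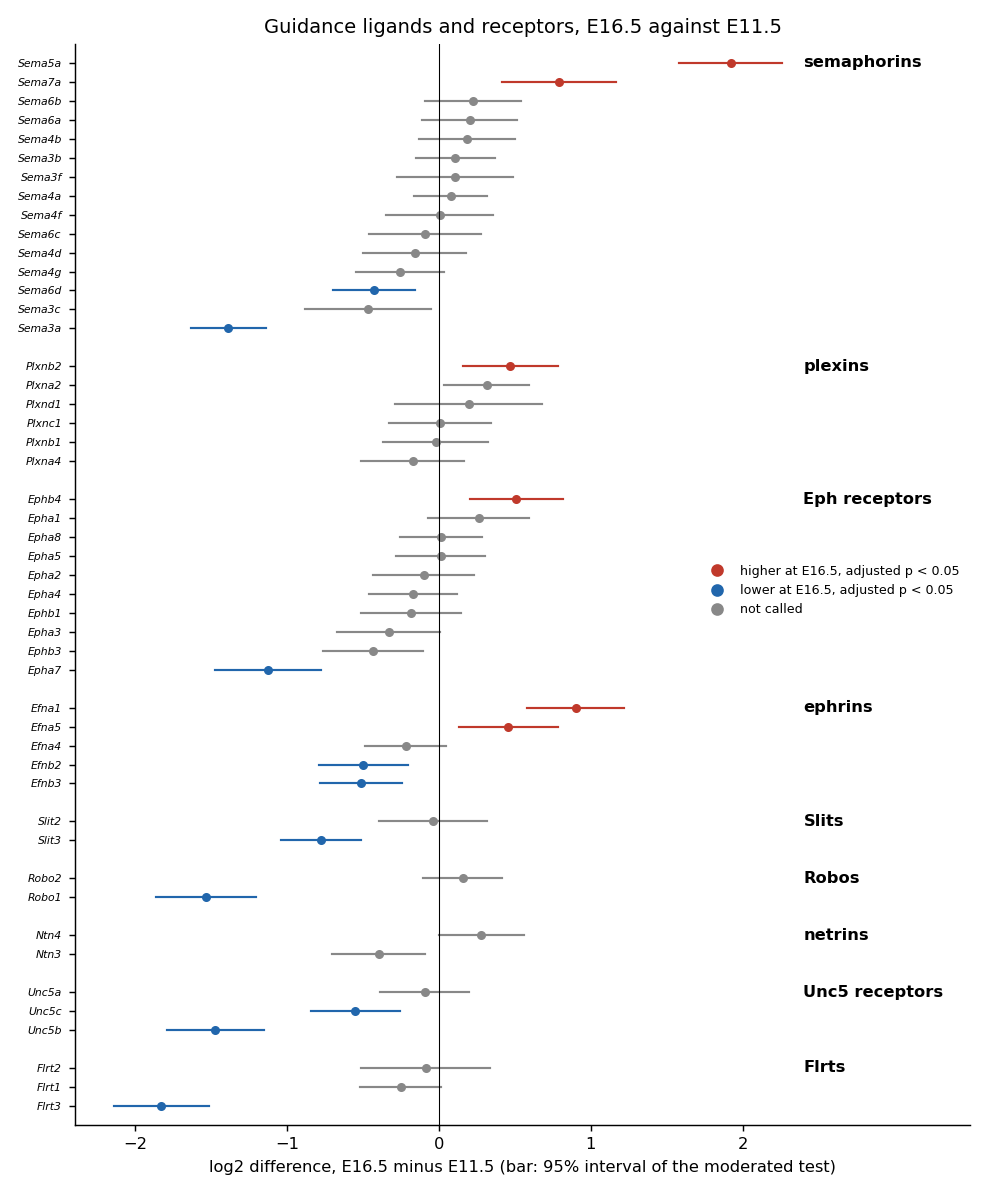
Change of every tested guidance gene in log2 units, E16.5 minus E11.5, with the 95% interval of the moderated test as a bar; genes are grouped by family and sorted by change. Red marks the 6 genes that were higher at E16.5, blue the 10 that were lower and grey the 32 that did not pass, while for Sema7a, Epha5, Ephb1, Ephb3 and Plxna4 the plotted fitted value involves a stage with no array above background.

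These 5 genes also had the lowest F test p-values among the members, so the sequence upstream of each is shown. Each line gives the 250 bases before the gene's start in the RefSeq annotation of GRCm38.p6, 5′ to 3′ on the gene's own strand. The windows are chr2:140671477-140671726 on the minus strand for Flrt3, chr15:32244563-32244812 on the plus strand for Sema5a, chr5:13396534-13396783 on the plus strand for Sema3a, chr16:72662899-72663148 on the plus strand for Robo1 and chr10:60831582-60831831 on the minus strand for Unc5b. For Sema3a and Robo1 that start lies inside the annotated span of the gene. Capitals mark matches to 4 short motifs.
Flrt3: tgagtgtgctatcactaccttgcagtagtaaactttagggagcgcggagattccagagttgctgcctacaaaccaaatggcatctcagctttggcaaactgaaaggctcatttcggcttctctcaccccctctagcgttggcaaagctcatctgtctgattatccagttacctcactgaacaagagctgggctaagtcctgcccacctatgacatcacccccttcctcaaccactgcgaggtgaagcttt
Sema5a: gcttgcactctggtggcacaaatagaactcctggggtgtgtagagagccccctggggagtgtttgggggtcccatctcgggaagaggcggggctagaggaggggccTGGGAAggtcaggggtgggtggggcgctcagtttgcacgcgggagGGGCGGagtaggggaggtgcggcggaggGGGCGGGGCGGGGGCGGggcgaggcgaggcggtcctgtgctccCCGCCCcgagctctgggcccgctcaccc
Sema3a: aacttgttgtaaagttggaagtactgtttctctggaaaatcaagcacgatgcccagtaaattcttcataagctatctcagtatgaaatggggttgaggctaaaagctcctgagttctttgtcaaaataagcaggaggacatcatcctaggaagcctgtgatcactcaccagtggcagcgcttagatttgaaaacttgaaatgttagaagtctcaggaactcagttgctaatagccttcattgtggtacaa
Robo1: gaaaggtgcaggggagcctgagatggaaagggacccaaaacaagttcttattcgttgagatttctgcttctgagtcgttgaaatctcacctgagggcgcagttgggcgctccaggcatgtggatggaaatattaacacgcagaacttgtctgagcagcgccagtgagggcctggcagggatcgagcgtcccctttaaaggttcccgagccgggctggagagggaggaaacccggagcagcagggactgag
Unc5b: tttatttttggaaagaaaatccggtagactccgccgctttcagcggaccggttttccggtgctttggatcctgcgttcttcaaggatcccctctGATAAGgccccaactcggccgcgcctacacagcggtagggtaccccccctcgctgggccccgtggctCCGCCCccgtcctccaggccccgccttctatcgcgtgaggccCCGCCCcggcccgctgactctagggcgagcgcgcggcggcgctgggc

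The motifs were searched on both strands: the GC box GGGCGG, the GATA factor letters GATAAG, the TEAD letters GGAATG and the RBPJ letters TGGGAA, of which the last 2 can overlap. Sema5a had 5 GC box matches and 1 RBPJ match, and Unc5b had 2 GC box matches and 1 GATA match. No match to any of the 4 was found in the windows of Flrt3, Sema3a and Robo1. Among 32851 RefSeq windows of the same length, 32.7% held the GC box, 6.55% the GATA letters, 12.6% the TEAD letters and 21.6% the RBPJ letters. The GC content was 72.0% for Sema5a, 66.8% for Unc5b and 56.0% for Robo1, and 40.8% for Sema3a, the lowest of the 5, with a median of 52.4% over all windows. The windows held 17 CG steps for Sema5a, 27 for Unc5b, 11 for Robo1, 5 for Flrt3 and 2 for Sema3a, with a median of 6 over all. The 4 genes that fell thus included GC-rich and GC-poor windows, and the letters were matched without any measure of binding.

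Among the semaphorins, a family of guidance ligands, 15 of 19 genes were tested, 2 rose and 2 fell. Sema5a encodes a membrane semaphorin with thrombospondin repeats (chr15:32244813-32696341). It read 8.92, 9.09 and 8.78 at E16.5, against 7.01, 6.75 and 7.25 at E11.5. Every E16.5 array was above every E11.5 array. The difference was 1.92 ± 0.16 (SE), a 3.79-fold rise (limma, adjusted p = 2.69e-09). Its stage means were 7.01, 8.11, 8.57, 8.70, 9.06 and 8.93 over E11.5 to E16.5, so most of the rise lay before E14.5. The 2 probes to the RefSeq transcript rose by nearly the same amount, 1.92 and 1.90. The other 3 tested probes, to cDNA clones, did not pass.

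Sema7a encodes the semaphorin anchored by a lipid, which binds plexin C1 and integrins. It read 5.29, 5.55 and 5.63 at E16.5, against 4.88, 4.72 and 4.50 at E11.5. All 3 arrays of E16.5 and none of E11.5 were above background, so the rise is given as at least 1.39-fold (limma, adjusted p = 0.00228). Its plexin partner Plxnc1 differed by 0.01, with a 95% interval of -0.33 to 0.35.

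Sema3a, the secreted semaphorin known in the heart for patterning sympathetic nerves, fell (chr5:13124822-13603485). It read 5.04, 5.12 and 5.17 at E16.5, against 6.58, 6.44 and 6.47 at E11.5. The groups did not overlap, and the E16.5 arrays lay just over the background limit. The fall was -1.39 ± 0.12 (SE) on the log2 scale, 2.62-fold lower (limma, adjusted p = 2.94e-09). Stage means of Sema3a were 6.50, 6.04, 5.41, 5.35, 5.23 and 5.11 over E11.5 to E16.5, so most of the fall was in place by E13.5.

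Sema6d, a membrane semaphorin known from chick for a role in ventricle formation, read 6.42, 6.66 and 6.33 at E16.5, against 6.93, 7.04 and 6.73 at E11.5. The lowest E11.5 array was only just above the highest E16.5 array. Its change was -0.43 ± 0.13 (SE; limma, adjusted p = 0.0224), and its probe to a cDNA clone did not pass. The call was lost without E11.5 replicate 1, E11.5 replicate 2, E16.5 replicate 1 or E16.5 replicate 3, with adjusted p-values between 0.0619 and 0.112. It was also lost with the mean of the gene's probes, at 0.293.

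Sema3c, known from outflow tract septation, differed between the stages by the F test (limma, adjusted p = 0.00132) without passing between E16.5 and E11.5. It read 4.40, 4.75 and 5.11 at E16.5, against 5.62, 5.21 and 4.83 at E11.5. These arrays overlapped, and the change was -0.47 ± 0.20 (SE; limma, adjusted p = 0.118). Without E11.5 replicate 3 the adjusted p was 0.0373, and without E16.5 replicate 3 it was 0.0435. Its highest stage mean was 5.73 at E12.5 and its lowest 4.56 at E15.5, where no array was above background. The linear trend of Sema3c was falling, at -0.68 (limma, adjusted p = 0.000699). Sema3b had a quadratic trend (limma, adjusted p = 0.0296), with stage means of 5.30, 5.48, 5.71, 5.69, 5.54 and 5.41 over E11.5 to E16.5. The remaining 9 semaphorins passed none of the tests of this report, with changes between -0.26 for Sema4g and 0.22 for Sema6b.

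Of the plexins, the main semaphorin receptors, 6 of 7 genes were tested, 1 rose between E16.5 and E11.5 and none fell. Plxnb2, a receptor for class 4 semaphorins, read 8.28, 8.52 and 8.22 at E16.5, against 7.85, 7.89 and 7.88 at E11.5. The 3 E11.5 arrays lay close together and below every E16.5 array. The difference was 0.47 ± 0.15 (SE; limma, adjusted p = 0.0283), 1.39-fold. The adjusted p was 0.0805, 0.0634 and 0.0707 without E11.5 replicates 1, 2 and 3 in turn, and 0.137 without E16.5 replicate 2. The 2 other plexins with an F test call, Plxna2 and Plxnd1, followed other courses.

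Plxna2 rose between E12.5 and E11.5, by 0.73 (limma, adjusted p = 0.00296). It averaged 8.14 ± 0.17 at E12.5 and 7.41 ± 0.19 at E11.5 (SD, n = 3 each), and the groups did not overlap. Later stage means, between 7.69 and 7.93, lay between these stages, and the difference between E16.5 and E11.5 was 0.31 (limma, adjusted p = 0.115).

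Plxnd1 encodes the receptor for Sema3e known from endothelial cells. Its stage means were 7.68, 7.77, 7.70, 6.96, 7.69 and 7.87 over E11.5 to E16.5, and the arrays of E14.5 read 6.95, 6.83 and 7.09. All other arrays lay above those of E14.5, between 7.13 and 8.37. The F test called it (limma, adjusted p = 0.0429), and the call was gone without the E14.5 arrays, at 0.967. The difference between E16.5 and E11.5 was 0.20, with a 95% interval of -0.29 to 0.68. The probe to a cDNA clone also had its lowest mean at E14.5, 5.89, where its other stage means were 6.52 to 7.03. The mean over the 16 tested endothelial markers was lowest at E14.5 too, at 6.09 to 6.14 on its 3 arrays, as the plot of Plxnd1 and the marker lists shows. The part of the endothelial markers, and of the Xist pattern of these arrays, in the Plxnd1 values was not tested.

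**Figure D2:**
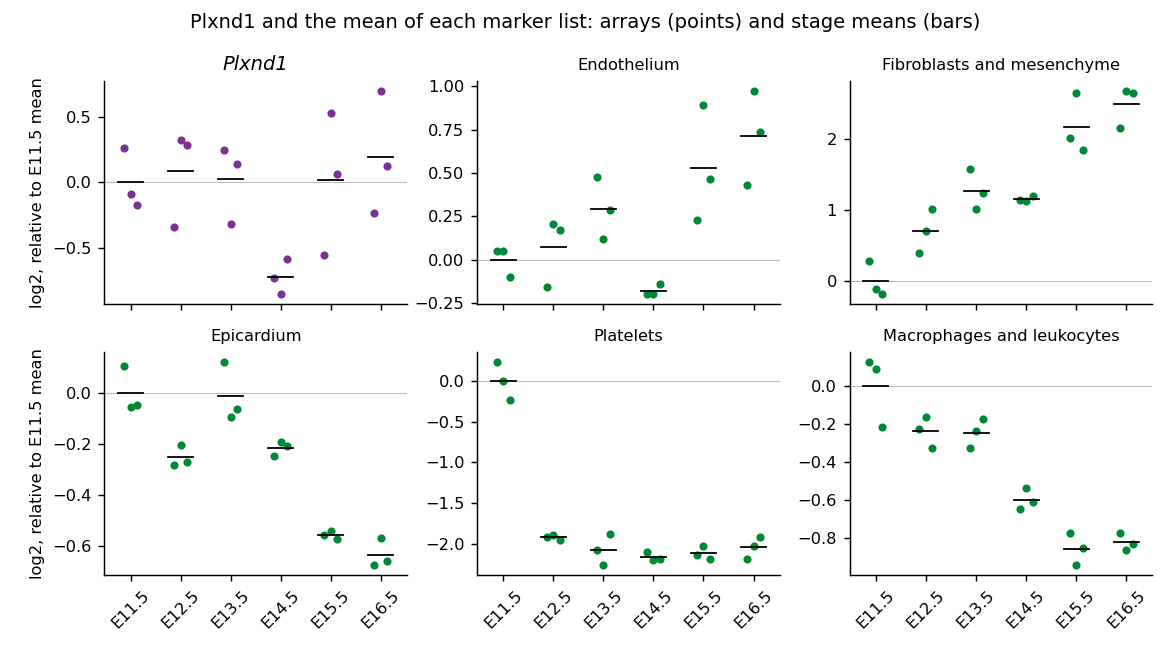
Plxnd1 and the mean over 5 marker lists on each array, in log2 units relative to the E11.5 mean, by stage; points are arrays, bars are stage means, and each panel has its own axis. Plxnd1 and the endothelial list have their lowest stage mean at E14.5, the fibroblast list climbs to 2.49 at E16.5, and the platelet list lies at -1.92 at E12.5.

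The Eph receptors, the largest family of receptor tyrosine kinases, had 10 of 13 genes tested, with 1 higher and 1 lower. Ephb4, the receptor known from veins, read 9.36, 9.73 and 9.08 at E16.5, against 8.81, 8.85 and 8.99 at E11.5. The lowest E16.5 array was just above the highest E11.5 array. The rise was 0.51 ± 0.15 (SE; limma, adjusted p = 0.0159), 1.42-fold, and 2 of the 3 tested probes passed. The call on this probe was lost without E11.5 replicate 1, at an adjusted p of 0.0646, without E11.5 replicate 2, at 0.0530, and without E16.5 replicate 2, at 0.143.

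Epha7, a receptor for class A ephrins, read 6.58, 6.37 and 6.61 at E16.5, against 7.72, 7.65 and 7.56 at E11.5. The groups lay far apart relative to their spread. The fall was -1.13 ± 0.17 (SE), 2.18-fold lower (limma, adjusted p = 2.06e-05). The other 3 tested probes did not pass, and 1 of them was above background on no E16.5 array. Stage means of Epha7 were 7.65, 7.20, 6.45, 7.12, 6.60 and 6.52 over E11.5 to E16.5. The dip at E13.5 was made by replicates 2 and 3, at 6.06 and 6.34, whereas replicate 1 read 6.94.

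Epha3, known from the endocardial cushions, peaked in mid-course. Its stage means were 7.30, 7.71, 7.84, 7.65, 7.01 and 6.97 over E11.5 to E16.5, with a quadratic coefficient of -0.58 (limma, adjusted p = 0.00342). The difference between E16.5 and E11.5, -0.33, did not pass, and the linear trend, at -0.47, did (limma, adjusted p = 0.00337). The other 2 tested Epha3 probes also had their highest mean at E13.5, but both differed by 0.02 between E16.5 and E11.5. Neither passed the linear trend (limma, adjusted p = 0.513 and 0.434) or the quadratic trend (limma, adjusted p = 0.127 and 0.305). Epha2 was called by the F test at an adjusted p of 0.0394, through arrays of 5.12, 5.50 and 5.72 at E13.5. Without E13.5 replicates 2 and 3 its adjusted p was 0.850. None of the other 6 Eph receptors tested passed between E16.5 and E11.5. Epha1, Epha4 and Epha8 differed by 0.26, -0.17 and 0.01. Epha5, Ephb1 and Ephb3 were each above background on no array of at least 1 of the stages E16.5 and E11.5. Ephb1 and Ephb3 have only a bound, and for Epha5 no size is given. Ephb3, above background on none of the E16.5 arrays and on 2 of the E11.5 arrays, had a falling linear trend (limma, adjusted p = 0.0221).

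The ephrins, the ligands of the Eph receptors, had 5 of 7 genes tested: 2 class A ephrins rose and 2 class B ephrins fell. Efna1 read 6.94, 7.10 and 6.70 at E16.5, against 5.90, 6.06 and 6.07 at E11.5. Every E16.5 array was higher, and the arrays between E12.5 and E14.5 stayed near those of E11.5, at 5.77 to 6.23. The rise was 0.90 ± 0.15 (SE), 1.87-fold (limma, adjusted p = 0.00011).

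Efna5, a class A ephrin bound to the membrane by a lipid anchor, read 10.57, 10.33 and 10.11 at E16.5, against 10.03, 9.68 and 9.93 at E11.5. The groups were separated by less than their own spread. The rise was 0.46 ± 0.16 (SE), 1.37-fold (limma, adjusted p = 0.0414), and the other tested probe, at 0.23, did not pass. Its call was lost in 8 of 25 other settings, among them without E11.5 replicate 2, at an adjusted p of 0.190, without E11.5 replicate 3, at 0.0771, without E14.5 replicate 3, at 0.0503, without E16.5 replicate 1, at 0.189, and without E16.5 replicate 2, at 0.0874. The settings with the mean of the gene's probes, at 0.130, no background correction, at 0.0504, and no filter on dim probes, at 0.0568, make up the rest.

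Efnb3, known from the midline of the nervous system, read 5.81, 6.11 and 6.01 at E16.5, against 6.24, 6.65 and 6.59 at E11.5. The groups did not overlap, and the fall was -0.52 ± 0.13 (SE; limma, adjusted p = 0.00574). Efnb2, the ephrin known from arteries and the ligand of Ephb4, read 4.68, 5.11 and 4.84 at E16.5, against 5.15, 5.36 and 5.62 at E11.5. Only 1 of the 3 E16.5 arrays was above background, against all 3 at E11.5. The fall of Efnb2 was -0.50 ± 0.14 (SE; limma, adjusted p = 0.0134), lost without E11.5 replicate 3 at 0.110 and without E16.5 replicate 1 at 0.0772. Ephb4 and Efnb2 thus moved in opposite directions, and the call on the brightest probe of each was lost without some single arrays. For Ephb4, a second of the 3 tested probes passed as well, at 0.51 (limma, adjusted p = 0.00249). Efna4 differed by -0.22 between E16.5 and E11.5 and did not pass, though its linear trend was falling (limma, adjusted p = 0.0221). The other tested Efna4 probe fell by 0.47 between these stages (limma, adjusted p = 0.0445).

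Slits are large secreted proteins and Robos their receptors. Slit3 read 5.44, 5.56 and 5.36 at E16.5, against 6.13, 6.33 and 6.23 at E11.5. The groups did not overlap, and the fall was -0.78 ± 0.13 (SE), 1.72-fold lower (limma, adjusted p = 6.5e-05). The fall was in place by E12.5, where the arrays read 5.33, 5.48 and 5.46. This probe is to a cDNA clone, and the probe to the RefSeq transcript of Slit3, at -0.35, did not pass (limma, adjusted p = 0.130).

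Slit2 read 7.59, 8.11 and 7.83 at E16.5, against 7.64, 7.90 and 8.11 at E11.5. The arrays overlapped, with a difference of -0.04 and a 95% interval of -0.40 to 0.31. Of its 5 tested probes, 1 to a cDNA clone fell by 0.85 (limma, adjusted p = 0.000385). The brightest probe had its lowest mean, 7.31, at E14.5, as the clone probe did, at 4.90.

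Robo1 (chr16:72027518-73047491) read 7.17, 7.12 and 6.95 at E16.5, against 8.96, 8.32 and 8.56 at E11.5. Every E16.5 array was more than 1 log2 unit below every E11.5 array. The fall was -1.53 ± 0.16 (SE), 2.90-fold lower (limma, adjusted p = 8.2e-08). Stage means were 8.61, 8.82, 8.46, 8.32, 7.50 and 7.08 over E11.5 to E16.5, so that most of the fall came after E14.5. The other tested Robo1 probe, to a cDNA clone, differed by -0.26 and did not pass. Robo2, which lies near Robo1 on chromosome 16, differed by 0.16, with a 95% interval of -0.10 to 0.41. Of the other 2 Robo2 probes tested, 1 fell (limma, adjusted p = 0.0395), and as it was above background on no E16.5 array its fall is given as at least 1.16-fold.

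Netrins are laminin-like cues, and Unc5 proteins are their repulsive receptors. Ntn3 and Ntn4 did not pass between E16.5 and E11.5, at -0.40 (limma, adjusted p = 0.0646) and 0.28 (limma, adjusted p = 0.178). Their linear trends passed in opposite directions, falling for Ntn3 (limma, adjusted p = 0.00767) and rising for Ntn4 (limma, adjusted p = 0.0310). The other tested Ntn4 probe passed as higher at E16.5 (limma, adjusted p = 0.00865), but it was above background on 1 array of E16.5 and on none of E11.5, so no size is given. Ntn1 has no named probe and was not analysed here.

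Unc5b, a netrin receptor known from endothelial tip cells, fell (chr10:60762594-60831581). It read 7.84, 8.08 and 7.23 at E16.5, against 9.14, 9.16 and 9.27 at E11.5. All E16.5 arrays were lower, and they varied more than those of E11.5 (SD 0.44 at E16.5 and 0.07 at E11.5, n = 3 each). The fall was -1.47 ± 0.16 (SE), 2.77-fold lower (limma, adjusted p = 1.07e-07). Stage means were 9.19, 9.09, 8.80, 8.86, 7.89 and 7.72 over E11.5 to E16.5. Unc5c read 5.22, 4.97 and 5.07 at E16.5, against 5.91, 5.54 and 5.47 at E11.5. Only 2 of the 3 E16.5 arrays were above background, against all 3 at E11.5. Unc5c fell by 0.55 (SE 0.14; limma, adjusted p = 0.00654), its other tested probe passed as well, and the call was lost without E11.5 replicate 1, at 0.0683. Unc5a, at -0.10, did not pass.

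All 3 Flrt genes were tested. Flrt3, which binds Unc5b and also Robo1, had the smallest adjusted p among the members by their brightest probe (chr2:140658198-140671476). It read 8.04, 7.53 and 7.97 at E16.5, against 9.77, 9.60 and 9.64 at E11.5. Every E16.5 array lay far below every E11.5 array. The fall was -1.83 ± 0.15 (SE), 3.55-fold lower (limma, adjusted p = 1.45e-09). Stage means were 9.67, 9.01, 8.59, 8.81, 7.80 and 7.84 over E11.5 to E16.5.

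Flrt2, known from the epicardium and the heart's basement membrane, did not pass between E16.5 and E11.5, with a difference of -0.09 and a 95% interval of -0.51 to 0.34. Its stage means of 7.80, 8.58, 7.97, 8.62, 7.91 and 7.71 over E11.5 to E16.5 gave an F test call (limma, adjusted p = 0.00227) and a quadratic coefficient of -0.58 (limma, adjusted p = 0.0201). At E13.5 its arrays were spread widely, at 8.62, 7.98 and 7.31. Flrt1 differed by -0.25 and did not pass.

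**Figure D3:**
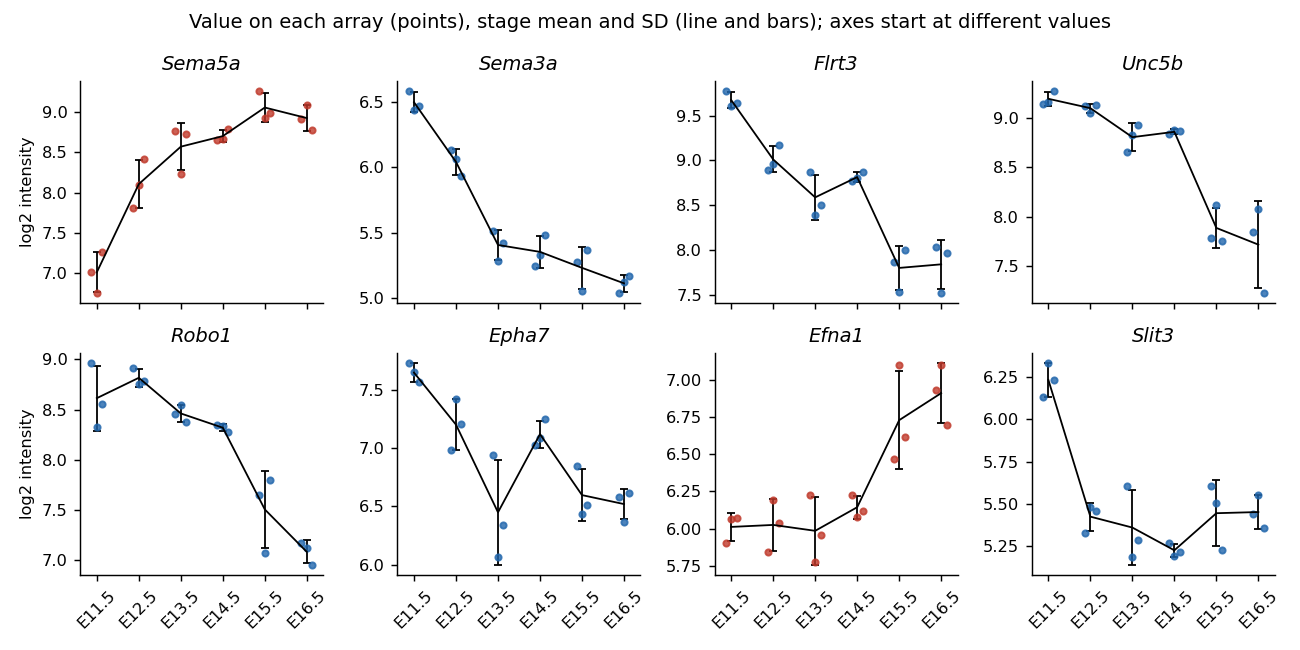
Log2 intensity of 8 guidance genes on each of the 18 arrays by stage, with stage means as a line and SD (n = 3) as bars; red genes were higher at E16.5, blue genes lower, and each panel has its own axis. Slit3 drops by E12.5, Sema5a climbs and Sema3a falls mainly by E13.5, and Flrt3, Unc5b, Robo1 and Efna1 step at E15.5.

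By day, 5 members changed between E12.5 and E11.5, where 2.11% of all tested genes did. Sema5a rose by 1.10 (limma, adjusted p = 0.000245) and Plxna2 by 0.73, while Slit3 fell by 0.81 (limma, adjusted p = 0.000504), Flrt3 by 0.66 (limma, adjusted p = 0.0194) and Sema3a by 0.46 (limma, adjusted p = 0.0499). The count was 3 without any of E11.5 replicates 1, 2 and 3 or E12.5 replicates 1 and 2. Over the same step the mean of the 4 platelet markers was 5.09 at E12.5, against 7.01 at E11.5, and that of the 11 fibroblast markers 6.63 at E12.5, against 5.92 at E11.5. The epicardial mean was 5.55 at E12.5, against 5.81 at E11.5, and the macrophage and leukocyte mean 5.73 at E12.5, against 5.97 at E11.5. The part of these lists in the changes was not tested.

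The steps of E13.5 and E14.5 held few members. Between E13.5 and E12.5, 2 members fell, where 2.64% of all genes changed: Epha7 by 0.75 (limma, adjusted p = 0.0197) and Sema3a by 0.64 (limma, adjusted p = 0.00561). Between E14.5 and E13.5, where 3.84% of all genes changed, Epha7 rose by 0.67 (limma, adjusted p = 0.0303) and Epha2 fell by 0.60 (limma, adjusted p = 0.0407). Single arrays moved both counts. The first was 6 without E13.5 replicate 1 and 1 without E12.5 replicate 2 or 3 or E13.5 replicate 2 or 3. The second was 5 without E13.5 replicate 1, 1 without E11.5 replicate 2, and 0 without E13.5 replicate 2 or 3 or any of the E14.5 replicates. The marker list that moved most was that of fibroblasts over the first of these steps, with a mean of 7.20 at E13.5, against 6.63 at E12.5, and that of endothelium over the second, with 6.11 at E14.5, against 6.58 at E13.5. Their part was not tested. In the second step stage and sex cannot be told apart either, as the E13.5 arrays all had Eif2s3y above background and no E14.5 array did.

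Between E15.5 and E14.5, 6 members changed, where 4.24% of all genes did. Flrt3 fell by 1.01 (limma, adjusted p = 0.000191), Unc5b by 0.97 (limma, adjusted p = 0.000442), Robo1 by 0.82 (limma, adjusted p = 0.00342) and Epha3 by 0.64 (limma, adjusted p = 0.0277). Sema7a rose by 0.81 (limma, adjusted p = 0.0105) and Efna1 by 0.59 (limma, adjusted p = 0.0336). The adhesion protein Flrt3 and its known binding partners Unc5b and Robo1 thus fell over the same day. The count was 2 without E15.5 replicate 2 and 3 without E14.5 replicate 1. Over this day the mean of the 11 fibroblast markers was 8.09 at E15.5, against 7.08 at E14.5, that of the 16 endothelial markers 6.81 at E15.5, against 6.11 at E14.5, and that of the 8 smooth muscle and pericyte markers 7.44 at E15.5, against 6.95 at E14.5. The epicardial mean was 5.25 at E15.5, against 5.59 at E14.5, and the macrophage and leukocyte mean 5.11 at E15.5, against 5.37 at E14.5. The part of these lists was not tested either. The E14.5 arrays all had Xist without Eif2s3y, and the E15.5 arrays all had Eif2s3y above background. Stage and sex thus cannot be told apart over this day, for Flrt3, Unc5b and Robo1 as for the other members.

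Between E16.5 and E15.5, 0 members were called by limma, as were 0 of all named genes (0%), with 1 member and 4.24% of all genes at an unadjusted p under 0.05. The arrays of these stages with the same replicate number resembled each other, and a fit paired by number over these stages alone also called 0 members, with 1 at an unadjusted p under 0.05.

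Trends over all stages gave 6 rising members, where 14.4% of all genes rose, and 15 falling members, where 16.4% fell. A quadratic trend was called for 7 members, 14.6% of those tested, against 5.25% of all genes: Sema5a, Epha3, Flrt2, Slit3, Robo1, Sema3a and Sema3b. The coefficients were -0.72 for Sema5a, -0.54 for Robo1, 0.57 for Slit3 and 0.41 for Sema3a. Of the 20 members called by the F test, 7 had their highest stage mean at E11.5 and 2 at E16.5. Among all genes called by that test the shares were 27.6% at E11.5 and 29.6% at E16.5. The heat map of stage means orders the 20 by the stage around which their values centre. The F test calls of Plxnd1, Epha2, Ephb4, Plxnb2, Efna5 and Sema6d were each lost in some other settings: in 15, 11, 16, 9, 3 and 17 settings in that order, and those of the other 14 in none. The count of 20 ran from 14, without E11.5 replicate 2, to 22, without E16.5 replicate 2.

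**Figure D4:**
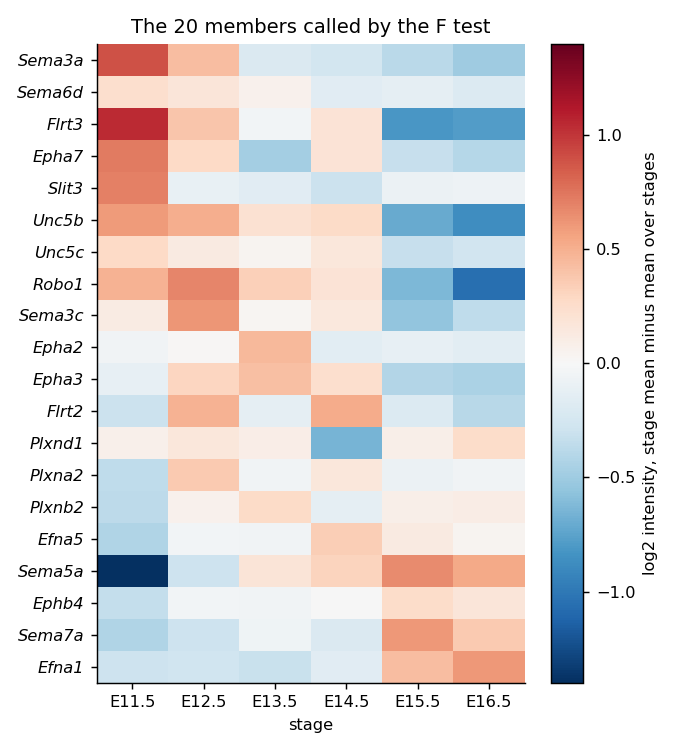
Stage means of the 20 guidance genes called by the F test, in log2 units relative to each gene's mean over the stages, with stages from left to right and genes sorted from those centred early to those centred late. Flrt3, Sema3a, Epha7 and Slit3 are highest at E11.5, Plxnd1 is low at E14.5, and Sema5a, Sema7a and Efna1 are highest at E15.5 or E16.5.

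Of the 48 tested genes, 27 were above background on all 18 arrays by their brightest probe and 5 on only 3 to 6 arrays, just inside the limit. Just outside it, Epha6 reached the limit on 2 arrays and Ephb6 and Unc5d on 1. The other 11 untested genes were above background on no array: Efna2, Efna3, Epha10, Plxna1, Sema3d, Sema3e, Sema3g, Sema4c, Slit1, Unc50 and Unc5cl. Sema3e is the ligand of Plxnd1, and Slit1 is a Robo ligand known mainly from the nervous system. For these genes the probes set only a bound, not an absence.

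The genes that work with the guidance receptors were taken from a list of 82 genes on the array, of which 65 were tested, 14 rose and 11 fell between E16.5 and E11.5. Over all tested named genes 11.4% rose and 12.8% fell, which are the shares to set beside these counts and those of the 2 parts of the list. The fall count was 7 without E11.5 replicate 1. Of the 12 tested at the cell surface, 4 rose and 1 fell. Robo4, the endothelial Robo, read 7.71, 8.41 and 8.24 at E16.5, against 6.87, 6.31 and 6.47 at E11.5, a 2.97-fold rise (limma, adjusted p = 1.85e-06). Over the same stages Robo1 fell, as given above. The latrophilin Adgrl2, a Flrt partner, rose by 0.79 (limma, adjusted p = 0.00366), and the latrophilin Adgrl3 fell by 0.43 (limma, adjusted p = 0.0402). Rgma, a neogenin ligand, rose at least 1.45-fold (limma, adjusted p = 1.65e-05), and the glypican Gpc1, which binds Slits, rose by 0.59 (limma, adjusted p = 0.00647).

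The neuropilins, through which Sema3a and Sema3c act, did not pass: Nrp1 differed by 0.13 (limma, adjusted p = 0.508) and Nrp2 by 0.01 (limma, adjusted p = 0.985). Of the netrin receptors outside the Unc5 family, neogenin (Neo1) differed by -0.09 (limma, adjusted p = 0.685) and Dcc by -0.29 (limma, adjusted p = 0.132).

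Inside the cell, 53 of 64 listed genes were tested, 10 rose and 10 fell. Grip1, a scaffold that binds class B ephrins, fell by 1.99 (limma, adjusted p = 7.03e-10). It read 5.36, 4.96 and 4.87 at E16.5, against 7.19, 7.01 and 6.96 at E11.5. Rnd2, a small GTPase that binds plexins, fell by 1.66 (limma, adjusted p = 3.2e-06), and the related Rnd3 rose by 1.05 (limma, adjusted p = 7.42e-06). The Rac exchange factors went both ways: Tiam1 fell by 1.07 (limma, adjusted p = 1.49e-07) and Vav3 rose by 0.90 (limma, adjusted p = 2.72e-05). Sipa1l1, a Rap GTPase activating protein, was 2.09-fold lower (limma, adjusted p = 1.65e-06).

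Markers of other cell types moved over the same stages, and their part in the changes of the guidance genes was not tested. Over all tested named genes 11.4% rose and 12.8% fell between E16.5 and E11.5. Of 16 tested endothelial markers 9 rose and 2 fell. Their mean ranged from 6.72 to 7.26 on the E16.5 arrays and from 6.18 to 6.33 on the E11.5 arrays. Of 11 fibroblast markers 10 rose, with a mean of 8.08 to 8.59 at E16.5 and 5.75 to 6.21 at E11.5. Of 9 epicardial markers 6 fell and 1 rose, with a mean of 5.13 to 5.24 at E16.5 and 5.75 to 5.91 at E11.5. All 4 platelet markers fell, with a mean of 4.83 to 5.09 at E16.5 and 6.78 to 7.25 at E11.5, and 3 of 5 macrophage and leukocyte markers fell, with a mean of 5.10 to 5.19 at E16.5 and 5.75 to 6.09 at E11.5. Smooth muscle and pericyte markers were split, with 3 of 8 higher and 1 lower. Of 11 nerve and Schwann cell markers on the array 3 were tested, and Sox10, Stmn2, Prph and Th were not above background on enough arrays. Over 13 cardiomyocyte markers the mean was 11.32 to 11.42 at E16.5 and 11.42 to 11.50 at E11.5, and 4 rose and 2 fell.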

How the data were processed

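RNA of sorted ventricular cells was measured on 18 arrays, 3 per stage. The authors deposited linear probe intensities of 45281 probes in the series matrix. From the values, these were already quantile-normalized: the sorted intensities of the arrays differ by at most 0.0873%. They ran from 83.8 to 17358 with a median of 104. Per the submitters' processing notes GenomeStudio 2011.1 was used, with settings that are not given in the sources used here. A further table that was not normalized has 36 columns whose names match no sample, and it was not used.

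The deposited intensities were background-corrected with normexp (limma 3.58.1, R 4.3.3, offset 16) and put on log2, with no further normalization. A probe was above background at an intensity over 105.4, the mode plus the one-sided 0.05 normal limit of the spread below the mode. The 25348 probes above it on at least 3 arrays (56.0%) were fitted in 1 limma model with a coefficient per stage over all 18 arrays. Contrasts were E16.5 against E11.5, 5 daily steps, linear and quadratic trends and a moderated F test. P-values were adjusted over all 25348 probes by the Benjamini-Hochberg method, with a threshold of 0.05, and the fit was tested on simulated data. Precision is limited by having 3 arrays at a stage. Where a gene was above background on no array of a stage, its fold is a bound against the lowest value above background there, or no size is given.

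Symbols came from the platform annotation, with 34885 probes of 1 symbol, 18 of several and 10378 of none. RefSeq's GRCm38.p6 table held 34807 of the named probes by Entrez identifier, and 0 symbols changed. A gene is represented by its brightest tested probe, and 20 members have more than 1 tested probe. Promoter windows come from RefSeq (GRCm38.p6) and were found for 42 of 48 tested members. Plxnb3, Plxna3 and Efnb1 are X-linked and were left out.

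The members, lists and tests were chosen with earlier results of these data known. Named were all members called between E16.5 and E11.5, the 3 largest called changes of each daily step, the 6 largest called quadratic coefficients, the 5 smallest F test p-values and a list of members of known cardiac or vascular role, and up to 6 called genes per partner list. Other members were named after their values were seen, where a count fell outside this rule.

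The alternatives were no background correction, an offset of 50, no filter and a stricter filter, a replicate block, array weights, the mean of a gene's probes, and leaving out arrays singly or in pairs. The labels do not say what a shared replicate number marks, so the numbers were checked for pairing through the correlation of deviations from stage means. Over all stages 23 of 45 pairs of arrays with the same number were over 0.1, against 3 of 90 with different numbers. All 3 same-number pairs were over 0.1 for E16.5 and E15.5 (0.191 to 0.333), for E13.5 and E11.5 (0.103 to 0.269) and for E14.5 and E12.5 (0.113 to 0.187), and not for the other combinations of stages, E16.5 and E11.5 among them (0.026 to 0.145). Of the first 3 combinations, E16.5 against E15.5 is a contrast of the model and was also fitted with pairs. The F test and trends use all stages, where not every pair was over 0.1, and their counts with a replicate block are given among the alternatives. The cut of 0.1 leaves out weaker likeness. Over all stages the median was 0.100 for same-number pairs and -0.051 for different-number pairs. For E16.5 and E11.5 every same-number pair was above every different-number pair (-0.098 to 0.011). The main fit leaves the numbers out, so its standard errors and p-values ignore this likeness.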

Additional observations from a re-analysis of the deposited data

How the results depend on the processing

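Over 25 settings, 575 of 600 repeats for 24 named members kept their side of the threshold between E16.5 and E11.5, 23 lost the call and 2 gained it (Sema3c). The 24 include members without a call in the main fit, which kept their side by staying uncalled. Most arrays left out singly were of the stages in between, which enter this contrast only through the shared spread. The count of 575 thus says little about the called members. A reversal of direction was counted only where a call was involved, and there were 0. Some changes without a call did change sign between settings, such as Flrt2, from -0.21 to 0.02, and Plxnd1, from -0.05 to 0.41. Of the 16 members called between E16.5 and E11.5, 10 kept the call in all of these settings. With a replicate block, 6 members rose and 10 fell, the F test called 23, linear trends 6 rising and 15 falling, quadratic trends 8, and the daily steps 6, 2, 2, 7 and 0, each within 1.5 times of the count without the block. Counts of members called per daily step moved most. For E14.5 against E13.5 (2 members), no background correction gave 0, an offset of 50 gave 1, the mean of a gene's probes 1, and array weights 7. Leaving out E13.5 replicates 2 and 3 gave 0, and leaving out E12.5 replicate 1 with E13.5 replicate 1 gave 6. For E13.5 against E12.5 (2 members), the mean of a gene's probes gave 1 and array weights 4, while leaving out those pairs of arrays gave 0 and 7. Array weights gave 11 for E15.5 against E14.5 (6 members) and 11 quadratic trends (7 members), and 11 quadratic trends were also called without E12.5 replicate 1 and E13.5 replicate 1. The cause of these shifts was not tested. Leaving out each array in turn, rises ran from 3 to 6, falls from 8 to 12, F test calls from 14 to 22, and the first 4 daily steps from 3 to 6, 1 to 6, 0 to 5 and 2 to 8. Partner rises ran from 10 to 15 and partner falls from 7 to 12. Chosen after seeing the data, leaving out stage E14.5 gave 5 rises, 10 falls and 16 F test calls, with Efna5, Epha2, Ephb4, Plxnd1 and Sema6d lost and Efna4 gained. Signal over background limits what can be said of the 14 untested members and of tested members below the limit on some arrays. Of the 48 tested members, 27 were above it on all 18 arrays by their brightest probe. Sema7a, Sema3c, Efnb2, Unc5c and Epha2 are among those that were not.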
